A study of Mus musculus with 6 samples.

Results

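A set of 10 genes was followed that set or mark the cell lineages of the mammary epithelium, namely Elf5, Kit, Sox9, Sox10, Gata3, Foxa1, Tfap2a, Tfap2b, Tfap2c and Trp63. They were chosen by name, and 9 of the 10 were found among the 10995 genes of the table, all but Foxa1, which was not analysed here. Their messenger RNA was measured in tumor cells of MMTV-PyVT mice, in which the promoter of the mouse mammary tumor virus drives the polyoma middle T oncogene in mammary epithelium. The 6 libraries all carried that transgene on the FVB/NJ strain, and 3 were labelled wild type for Nr4a1 and 3 Nr4a1-/-. The mice were age-matched per the study's design text, with no age in the labels, and the sources used here do not give how the tumor cells were isolated, whether animals were pooled or which part of Nr4a1 was disrupted. Whether each library stands for its own mouse is not in the labels, and p-values therefore cover only the spread among these 6 libraries, possibly a technical one. The lowest count of any lineage gene was 418, for Kit in knockout replicate 2, and no gene was removed by the filter on low counts. The table held no gene whose highest count was below 133, and shares of all genes refer to the genes it held.

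The mammary gland is built of an inner luminal and an outer basal layer. Luminal progenitors carry the receptor tyrosine kinase Kit and the ETS factor Elf5, which together with prolactin signalling drives the secretory alveolar fate. Gata3 and the pioneer factor Foxa1 maintain luminal and hormone-sensing cells, and Trp63, which encodes p63, marks and maintains basal cells. The related HMG-box factors Sox9 and Sox10 are found in progenitor-like mammary cells. The AP-2 factors Tfap2a, Tfap2b and Tfap2c are paralogs that bind the same GC-rich element, and Tfap2c takes part in luminal differentiation.

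Promoter sequence was at hand for 6 of the 10 genes in RefSeq (GRCm38.p6). The windows of Kit and Tfap2b are shown because these genes varied most between libraries, and that of Gata3 because it held the most matches to the AP-2 element. Each run, 5′ to 3′ on the strand of the gene with motif matches in capitals, comes from the 250 bases before the RefSeq start of transcription, without the last 71 bases for Kit, which GENCODE M21 places in an exon of Kit. The Gata3 window lies within an exon of the antisense gene Gm13256 in that annotation. The Tfap2b and Gata3 windows lie inside the spans that GENCODE M21 gives these genes, which begin at 19208914 and, on the minus strand, 9890034. The windows are chr5:75574737-75574915 (plus strand) for Kit, chr1:19211804-19212053 (plus strand) for Tfap2b and chr2:9878601-9878850 (minus strand) for Gata3.
Kit: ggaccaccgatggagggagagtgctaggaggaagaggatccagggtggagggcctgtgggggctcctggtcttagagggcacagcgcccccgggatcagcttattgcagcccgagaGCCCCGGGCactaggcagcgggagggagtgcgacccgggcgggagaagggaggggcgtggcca
Tfap2b: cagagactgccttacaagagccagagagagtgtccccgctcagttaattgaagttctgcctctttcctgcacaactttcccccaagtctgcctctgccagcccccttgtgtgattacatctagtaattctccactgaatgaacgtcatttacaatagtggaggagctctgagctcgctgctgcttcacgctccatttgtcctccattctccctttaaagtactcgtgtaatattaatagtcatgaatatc
Gata3: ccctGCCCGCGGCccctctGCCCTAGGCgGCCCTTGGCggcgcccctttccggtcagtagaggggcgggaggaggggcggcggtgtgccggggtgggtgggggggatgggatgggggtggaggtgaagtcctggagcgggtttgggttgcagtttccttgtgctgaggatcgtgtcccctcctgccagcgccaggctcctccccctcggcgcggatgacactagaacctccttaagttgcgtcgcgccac

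The motifs searched on both strands were GCCNNNGGC for AP-2, AGATAA for GATA factors, ACAATG and ACAAAG for SOX factors, GTAAACA for FOX factors, CCGGAAGT for ETS factors and AAAGGTCA, the element that an NR4A monomer binds. The SOX letters ACAAAG and the FOX letters GTAAACA can overlap. The AP-2 letters, which read the same on both strands, occurred once in the Kit window, at 134 bases before the RefSeq start, and 3 times in the Gata3 window, at 246, 231 and 221 bases. They occurred in 13.7% of the 32851 windows of this length in the table. That share is not matched for base composition, and the fixed AP-2 letters are all G or C. Over 250 bases the Kit and Gata3 windows held 70.8% and 70% G and C, against a median of 52.4% over all windows. The Tfap2b window held none of the letters searched. The NR4A letters occurred in 0 of the 9 windows of the 6 genes and in 1.34% of all windows. A match is a description of the letters, and no match says only that they are not in this window.

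The label check and the depth concern all genes. Total counts were between 19569173 and 24188875 per library. The Nr4a1 transcript itself stood at 34.5, 18.6 and 16.9 CPM in wild type replicates 1, 2 and 3 and at 25.1, 35.5 and 37.7 CPM in knockout replicates 1, 2 and 3 (CPM, counts relative to the library total, scaled by TMM). It was thus not lower with the knockout label (log2 fold change 0.49, SE 0.32, edgeR adjusted p = 0.59; two-sided exact permutation p = 0.2, the smallest possible being 0.1). Counts of the whole gene cannot show whether reads cover the disrupted part, so every direction below is between libraries as labelled. Wild type replicate 1 stood apart on the principal component that carried 60.1% of the variance, and results are given with and without it. All 10 epithelial markers of the list used here, Epcam and Cdh1 among them, were in the table, with a summed level of 5740 to 6710 CPM in the libraries labelled wild type and 3670 to 4570 CPM in those labelled knockout.

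Per kilobase of exon, the SoxE genes were the most abundant of the lineage genes, and Trp63 and Elf5 the least. Mean levels over the 6 libraries were 104 CPM per kilobase ± 17.1 (SD, n = 6) for Sox10 and 59.9 ± 28.4 (SD, n = 6) for Sox9. Sox10 exceeded Sox9 in 6 of 6 libraries, although their ranges met at 75.3 and 115 CPM per kilobase. Sox9 lay above Gata3 in every library, and the ranges of these neighbours did not overlap. Gata3 followed at 22.7 CPM per kilobase ± 3.16 (SD, n = 6). Kit (15.8), Tfap2a (15.7), Tfap2c (14.5) and Tfap2b (12.9 CPM per kilobase) overlapped, as did Trp63 (8.56) and Elf5 (7.84 CPM per kilobase). From Gata3 down, every neighbouring pair in the order overlapped. The mean of Kit rests on a single library, with 57.1 CPM per kilobase in wild type replicate 1 and 1.97 to 18.0 in the others. Without division by length, 3 of the 9 genes kept their place in this order.

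**Figure D1:**
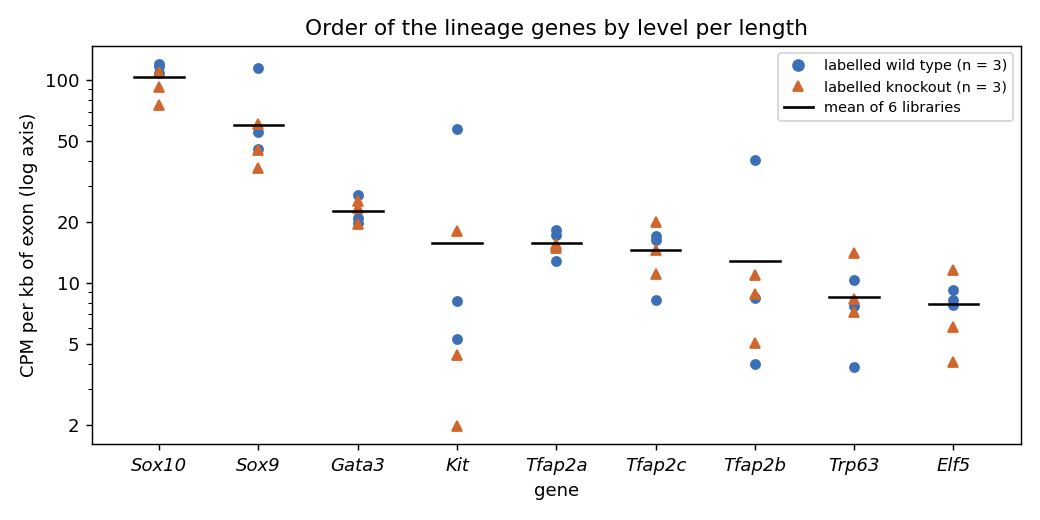
Level of each lineage gene per kilobase of exon (CPM per kilobase, log axis), 1 point per library, with the mean of the 6 libraries as a line. Sox10 and Sox9 lie highest, and the points of Kit spread from 1.97 to 57.1 CPM per kilobase.

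Between the labels, none of the 9 lineage genes passed the test. The edgeR quasi-likelihood test called 0 of 9 at an adjusted p under 0.05, and over all 10995 genes it called 0, a share of 0%. At an unadjusted p under 0.05 it gave 0 of 9, against 7.88% of all genes. That count was 2 without knockout replicate 3 (Elf5 and Sox10, edgeR adjusted p = 0.59 each) and 1 without wild type replicate 1 (Tfap2a, adjusted p = 0.72). Over all 10995 genes it was 859 and 753 in these settings, so these counts do not set the lineage genes apart. DESeq2, which called 63 unchanged genes in simulated counts against 14 for edgeR, also called 0 of the 9, against 0.937% of all genes (103), and limma-voom called 0 among all. The simulated counts held no library that stood apart, so they do not give the error rate of either test in these data. The groups overlapped for all 9, whereas they did not overlap for 17.4% of all genes, 8.39% higher and 9.05% lower with the knockout label. Of the 9 log2 fold changes 3 lay above 0 and 6 below, with a median of -0.22 against -0.0024 over all genes. Without wild type replicate 1 that median was -0.096, with 3 above and 6 below, and without knockout replicate 3 it was -0.46, with 1 above and 8 below.

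**Figure D2:**
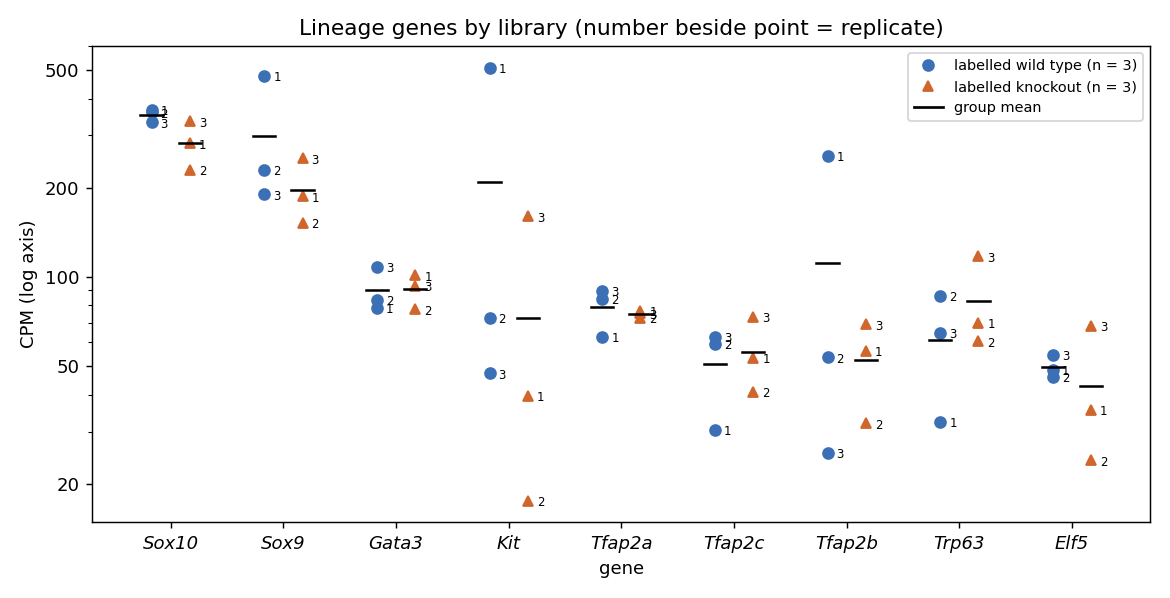
Level of each lineage gene (CPM, log axis) in the libraries labelled wild type (circles) and knockout (triangles), with the replicate number beside each point and group means as lines. The groups overlap for every gene, Kit and Tfap2b are far higher in wild type replicate 1 than elsewhere, and knockout replicate 2 is the lowest of its group for all 9 genes.

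Kit, the receptor of stem cell factor and a marker of luminal progenitors (ENSMUSG00000005672.12, chromosome 5, 75574916 to 75656722, plus strand, GRCm38), varied more between libraries than any other lineage gene. It stood at 509, 72.7 and 47.3 CPM in wild type replicates 1, 2 and 3 and at 39.6, 17.5 and 160 CPM in knockout replicates 1, 2 and 3. One library of each group was thus high, wild type replicate 1 and knockout replicate 3, and the groups overlapped. The highest library exceeded the lowest 29.0 times, a span that 0.227% of all genes reached. Group means were 210 CPM ± 260 (SD, n = 3) and 72.4 CPM ± 76.7 (SD, n = 3). The log2 fold change of -1.54 (SE 1.19, edgeR adjusted p = 0.63) was smaller than that spread and turned to 0.27 without wild type replicate 1. Without knockout replicate 3 it was -2.87. The genes whose pattern over the 6 libraries lay closest to that of Kit, by the root mean square difference of mean-centred log2 CPM, were the ferritin receptor Scara5 (0.25), the sugar transporter Slc5a9 (0.39) and the vitamin E carrier Ttpa (0.41). Scara5 stood at 223 CPM in wild type replicate 1, 108 CPM in knockout replicate 3 and at most 51.4 CPM elsewhere.

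The listed genes of Kit signalling spanned at most 1.25 log2 between libraries, against 4.85 for Kit. Kitl, which encodes the ligand, stood between 28.0 and 40.7 CPM in the 6 libraries, with a log2 fold change of 0.011 (SE 0.17). Of the 16 listed genes of the ligand and the signalling adaptors, 0 passed at an adjusted or an unadjusted p under 0.05, and 8 lay above and 8 below 0 with a median of -0.0082. Over all genes the shares that passed in edgeR were 0% and 7.88%. The 4 with the smallest unadjusted p were Sh2b3, Ptpn6, Shc1 and Grb2, with log2 fold changes of 0.20, 0.25, 0.16 and -0.57. Of these the adaptor Grb2 stood at 310 CPM in wild type replicate 1 and 130 to 148 CPM in the other libraries. Kit also marks mast cells and melanocytes. Of 10 mast cell markers Kit itself was the only one in the table, the proteases Cpa3 and Cma1 being outside it. Of 8 melanocyte markers the table held Kit, Mitf and Ednrb. Mitf lay between 6.25 and 8.09 CPM in all libraries. Ednrb, an endothelin receptor, was at most 0.826 CPM with the wild type label and 13.4 to 24.0 CPM with the knockout label (log2 fold change 5.29, SE 0.54, edgeR adjusted p = 0.27, DESeq2 adjusted p = 3.52e-19). In wild type replicate 1, where Kit was highest, Ednrb stood at 0.291 CPM.

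Tfap2b, unlike the other AP-2 genes Tfap2a and Tfap2c, was high in wild type replicate 1. Tfap2b (ENSMUSG00000025927.13, chromosome 1, 19208914 to 19238576, plus strand) stood at 256, 53.4 and 25.4 CPM in wild type replicates 1, 2 and 3 and at 56.1, 32.0 and 69.2 CPM in knockout replicates 1, 2 and 3. Tfap2c (ENSMUSG00000028640.11, chromosome 2, 172549593 to 172558622, plus strand) stood at 30.4, 59.4 and 62.7 CPM and at 53.3, 40.8 and 73.4 CPM. Wild type replicate 1 was therefore the highest library for Tfap2b and the lowest for Tfap2c. Tfap2a (ENSMUSG00000021359.16, chromosome 13, 40715302 to 40738376, minus strand) was also lowest there, at 62.8 CPM against 84.4 and 89.8 CPM in the other libraries of that label and 76.7, 72.7 and 75.1 CPM with the knockout label. Within the knockout label Tfap2a had an SD of 1.99 CPM around a mean of 74.9 CPM (n = 3), the closest agreement of any lineage gene. Tfap2b and Tfap2c followed the same order in that label, lowest in replicate 2 and highest in replicate 3.

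As shares of the summed level per kilobase of the 3 AP-2 genes, Tfap2b made up 65.7% in wild type replicate 1 and 10.2% to 23.6% in the other 5 libraries. Tfap2a and Tfap2c made up 20.8% and 13.4% in that library, and 33.2% to 47.9% and 35.8% to 43.3% in the others. The log2 fold changes between the labels were -1.09 (SE 0.86, edgeR adjusted p = 0.63) for Tfap2b, 0.13 (SE 0.34, adjusted p = 0.88) for Tfap2c and -0.078 (SE 0.14, adjusted p = 0.83) for Tfap2a. Without wild type replicate 1 that of Tfap2b turned to 0.41 and that of Tfap2c to -0.13, while that of Tfap2a was -0.22. Closest to Tfap2b in pattern were the deiodinase Dio2 (root mean square difference 0.25 log2), the guidance ligand Slit2 (0.35) and Fry (0.37). Closest to Tfap2c were the receptor Vipr1 (0.099), the integrin subunit Itgb6 (0.099) and Pxmp4 (0.13). Antisense gene models overlap 7.75%, 5.4% and 1.49% of the exon bases of Tfap2a, and no source here gives the counting strand, so part of its reads may be theirs. Gata3 has such an overlap over 3.9% of its exon bases, and the protein-coding gene 9230102O04Rik overlaps 1.94% of them on the same strand.

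**Figure D3:**
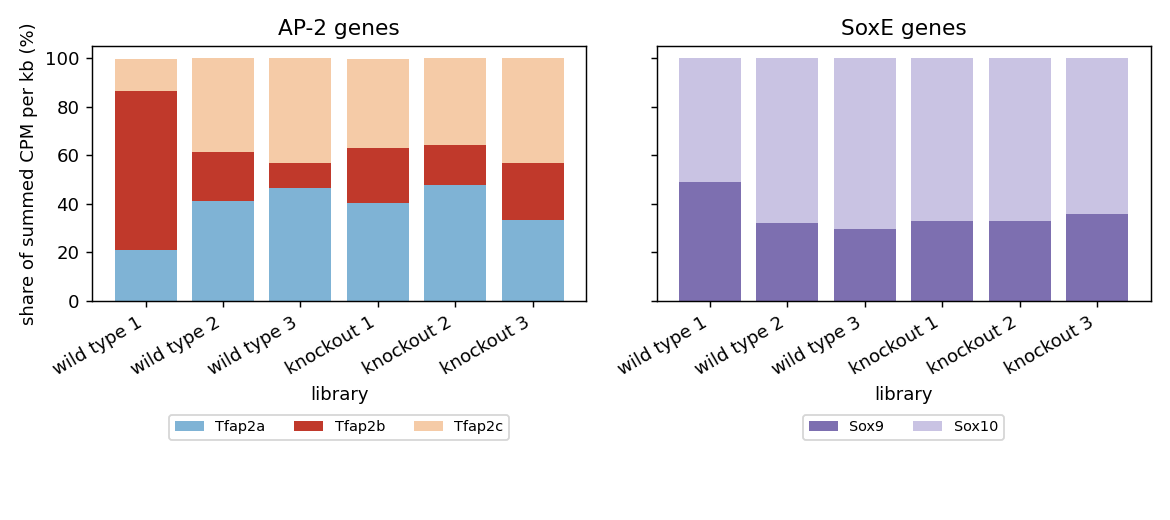
Share (%) of the summed level per kilobase that each paralog contributed in each library, for the AP-2 genes (left) and the SoxE genes (right). Tfap2b makes up 65.7% of the AP-2 sum in wild type replicate 1 and at most 23.6% elsewhere, and Sox9 makes up 48.9% of the SoxE sum there and 29.7% to 35.6% elsewhere.

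Of the SoxE genes, Sox10 was the steadier. Sox10 (ENSMUSG00000033006.10, chromosome 15, 79154908 to 79165240, minus strand) stood at 367, 360 and 332 CPM with the wild type label and at 283, 230 and 335 CPM with the knockout label. Only knockout replicate 3 reached into the range of the other group. The log2 fold change of -0.32 (SE 0.15, edgeR adjusted p = 0.57) had the smallest p of the 9 genes, 0.0689 before adjustment, and did not pass. It lay between -0.19 and -0.46 with each library left out in turn, and turned to 0.20 when levels were taken relative to the epithelial list. The median of all genes on that scale was 0.53, so Sox10 still lay below the median gene. Sox9 (ENSMUSG00000000567.5, chromosome 11, 112782224 to 112787760, plus strand) stood at 477, 230 and 190 CPM and at 187, 152 and 251 CPM. Wild type replicate 1 was again the high library, and the others overlapped. Between the labels Sox9 differed by -0.60 log2 (SE 0.39, adjusted p = 0.59 in edgeR). With wild type replicate 1 left out this was -0.096, and relative to the epithelial list 0.017, also below the median of all genes on that scale. Closest to Sox9 in pattern were the neurotrophic factor gene Gdnf (root mean square difference 0.066 log2), Pxdc1 (0.068) and Rassf9 (0.074). The transcripts of Sox9 and Sox10 share few words of 31 bases with any other gene, 1.34% and 0.909%.

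Sox10 is also a marker of Schwann cells. Of 10 markers of that cell type, 5 were in the table, Sox10 included, and 2 of the 5 lay above 0 and 3 below. The summed level of the 5 was 622 to 730 CPM with the wild type label and 484 to 593 CPM with the knockout label. Sox10 itself gave 332 to 367 CPM and 230 to 335 CPM of these sums, so they are not independent of it. Erbb3, which breast epithelium also expresses, and Mbp lay below the wild type range in all 3 libraries labelled knockout, with log2 fold changes of -0.87 (SE 0.30) and -0.45 (SE 0.16) that did not pass (edgeR adjusted p = 0.57 each). Cnp and Pmp22, the other two in the table, had 0.31 (SE 0.33) and 0.24 (SE 0.45). In wild type replicate 1 Erbb3 stood at 202 CPM, against 65.2 to 104 CPM in the others. The part of such cells in the Sox10 values was not tested. Of the other SOX genes, Sox11 had the smallest unadjusted p among the relatives of the lineage genes. It stood at 68.2, 57.8 and 45.9 CPM with the wild type label and at 26.6, 36.5 and 35.8 CPM with the knockout label. Its groups did not overlap, and its log2 fold change of -0.80 (SE 0.19) missed the edgeR threshold (adjusted p = 0.57) and passed in DESeq2 (adjusted p = 0.0319). Sox5 had a log2 fold change of 0.72 (SE 0.26, edgeR adjusted p = 0.57). The receptor kinases Pdgfrb and Pdgfra, relatives of Kit that mark pericytes and fibroblasts, had 1.18 (SE 0.40) and 0.79 (SE 0.31) in the same test (adjusted p = 0.57 each). Of the 13 listed relatives 0 were called by edgeR, with 7 above 0, 6 below and a median of 0.049. At an unadjusted edgeR p under 0.05 there were 4 of the 13, 3 higher and 1 lower, against 7.88% of all genes.

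Among the luminal factors, Gata3 was level between the labels and Elf5 differed widely between the libraries labelled knockout. Gata3 (ENSMUSG00000015619.10, chromosome 2, 9857078 to 9890034, minus strand) stood at 78.7, 83.7 and 108 CPM and at 101, 77.6 and 93.3 CPM, with group means of 90.2 CPM ± 15.8 and 90.7 CPM ± 12.0 (SD, n = 3 each). Between the labels it differed by 0.0078 log2 (SE 0.16, adjusted p = 0.99 in edgeR). Gata3 is a T cell factor as well, and of 10 lymphoid markers it was the only one in the table, Cd3e and Cd4 being outside it. Elf5 (ENSMUSG00000027186.14, chromosome 2, 103411688 to 103450989, plus strand) stood at 48.4, 45.9 and 54.4 CPM in the libraries labelled wild type (mean 49.6 CPM ± 4.36, SD, n = 3). With the knockout label it stood at 35.6, 24.0 and 68.2 CPM, a mean of 42.6 CPM ± 22.9 (SD, n = 3). Knockout replicates 1 and 2 thus lay below all libraries of the other label and knockout replicate 3 above them. Between the labels Elf5 differed by -0.22 log2 (SE 0.37, adjusted p = 0.82 in edgeR). Without knockout replicate 3 it was -0.73 (SE 0.20, edgeR adjusted p = 0.59), and without knockout replicate 2 it was 0.065. Closest in pattern to Elf5 were the ligand gene Bmp2 (root mean square difference 0.11 log2), Ttc39a (0.14) and Ttc22 (0.14).

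Genes that Elf5 is known to act with did not pass either. Of the 10 listed genes of prolactin signalling and milk, edgeR called 0, as over all genes. At an unadjusted p under 0.05 there were 0 of the 10, against 7.88% of all genes. In the list 3 lay above 0 and 7 below, and the median was -0.14. The lipid droplet coat gene Plin2 had 0.36 (SE 0.17), the casein Csn1s1 -1.30 (SE 1.32), Btn1a1 -0.25 (SE 0.28) and the kinase Jak2 0.14 (SE 0.19), all with an edgeR adjusted p of 0.57 or more. Plin2 was the 1 gene of the 10 that lay higher in all 3 libraries labelled knockout, as did 8.39% of all genes. Csn1s1 differed widely between libraries of a label, at 11.7, 6.19 and 131 CPM in wild type replicates 1, 2 and 3. Of 14 markers of hormone-sensing cells, which Gata3 and Foxa1 are known to support, the table held Ly6a and Ceacam1, with log2 fold changes of 0.28 (SE 0.68) and 0.16 (SE 0.52). The estrogen and progesterone receptor genes Esr1 and Pgr were not analysed here. Ly6a stood at 35.4 CPM in wild type replicate 1 and at 143 to 263 CPM in the other libraries, and without that library both genes lay below 0, with a median of -0.15.

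Of 18 genes listed as luminal progenitor markers, beside Kit and Elf5, 15 lay below 0, with a median log2 fold change of -0.48. Whether these genes, luminal keratins among them, are particular to progenitor cells was not tested. The genes above 0 were Trf at 0.52 (SE 0.43), Itgb3 at 0.39 (SE 0.33) and Lbp at 0.0044 (SE 0.34). Of the 18, edgeR called 0, 6 reached an unadjusted p under 0.05, all lower with the knockout label, and DESeq2 called 1. Of all 10995 genes 459 were lower at an unadjusted edgeR p under 0.05, and DESeq2 called 0.937%. The keratin Krt7 stood at 887, 977 and 793 CPM with the wild type label and at 668, 562 and 557 CPM with the knockout label (log2 fold change -0.57, SE 0.13, edgeR adjusted p = 0.57, DESeq2 adjusted p = 0.00532). Prom1 had a log2 fold change of -0.45 (SE 0.12), Krt19 -0.51 (SE 0.14) and the cytokine Lif -0.72 (SE 0.25), and the groups did not overlap for any of these. Of the 18 genes, 4 lay lower in all 3 libraries labelled knockout, as did 9.05% of all genes. Without wild type replicate 1 the median was -0.53, with 4 above 0 and 14 below. The epithelial list, which shares Krt8 and Krt18 with it, had 10 of 10 below 0 and a median of -0.47. The summed level of the luminal progenitor list was 4770 to 5930 CPM with the wild type label and 3410 to 4470 CPM with the knockout label.

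Trp63, the basal factor (ENSMUSG00000022510.14, chromosome 16, 25683763 to 25892102, plus strand), was lowest in the library where Kit was highest. It stood at 32.4, 86.2 and 64.6 CPM in wild type replicates 1, 2 and 3 and at 69.9, 60.6 and 117 CPM in knockout replicates 1, 2 and 3. Wild type replicate 1 was the lowest library and knockout replicate 3 the highest, and the groups overlapped. Knockout replicate 3 also had the next highest level of Kit, 160 CPM. Outside wild type replicate 1, Trp63 and Kit were both lowest in knockout replicate 2, so their opposite positions rest on 1 library. Between the labels Trp63 differed by 0.43 log2 (SE 0.41, adjusted p = 0.68 in edgeR). With wild type replicate 1 left out this was 0.13, with knockout replicate 3 left out 0.096 and with wild type replicate 2 left out 0.77. Counts per gene do not separate the long and short p63 forms, which start from different promoters. Among the closest in pattern were the matrix gene Vwa1 (root mean square difference 0.13 log2) and the activin subunit Inhbb (0.17).

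Of 23 genes listed as basal or p63-linked, 11 lay above 0 and 12 below, with a median of -0.0048. Of the 23 edgeR called 0, and DESeq2 called 1 in each direction, against 0.937% of all genes in either direction. Among the 11 were Acta2 (0.82), Cnn1 (0.78), Vim (0.94) and Procr (1.03), which are not particular to basal cells. Mylk and Myh11, contractile genes that pericytes and smooth muscle also express, lay above 0, at 1.73 (SE 0.32) and 1.69 (SE 0.59) log2, while the integrin subunits Itgb4 and Itga3 had -0.64 (SE 0.14) and -0.39 (SE 0.12), each with an edgeR adjusted p of 0.57 and groups that did not overlap. Of the 23 genes, 2 lay higher and 2 lower in all 3 libraries labelled knockout, against 8.39% and 9.05% of all genes. Wild type replicate 1 was the lowest library for 12 of the 23 and the highest for 3. It was the lowest for 31.6% and the highest for 32.2% of all genes. In that library Krt17 stood at 153 CPM against 525 to 921 CPM elsewhere. The basal keratins Krt14 and Krt5 were not lowest there, at 661.5 CPM (313 to 902 elsewhere) and 78.3 CPM (51.5 to 118 elsewhere). Without wild type replicate 1, 9 members lay above 0 and 14 below, with a median of -0.14. Of the 9 pericyte and smooth muscle genes, which include Acta2, Cnn1 and Myh11 of the basal list, 8 lay above 0 (median 1.18), and the summed level was 344 to 1160 CPM with the wild type label and 953 to 2080 CPM with the knockout label. The part of such cells in the basal values was not tested.

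Other regulators of mammary epithelium followed no common direction. Of 25 listed genes edgeR called 0, 12 lay above 0 and 13 below, and the median was -0.039. The smallest unadjusted p were those of Elf3, an epithelial ETS factor and relative of Elf5, with a log2 fold change of -0.93 (SE 0.31), Hif1a with 0.52 (SE 0.18), Ets2 with -0.31 (SE 0.12) and Nfia with 0.34 (SE 0.14). Each had an edgeR adjusted p of 0.57, and their groups did not overlap. Of the 25 genes, 2 lay higher and 3 lower in all 3 libraries labelled knockout, against 8.39% and 9.05% of all genes. Elf3 stood at 34.2, 20.1 and 16.4 CPM with the wild type label and 12.0, 10.2 and 14.9 CPM with the knockout label. Over all 107 listed genes of the 7 lists of related genes, edgeR called 0, and DESeq2 called 4, namely Sox11, Krt7, Itgb4 and Mylk. The share that DESeq2 called over all genes was 0.937%.

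**Figure D4:**
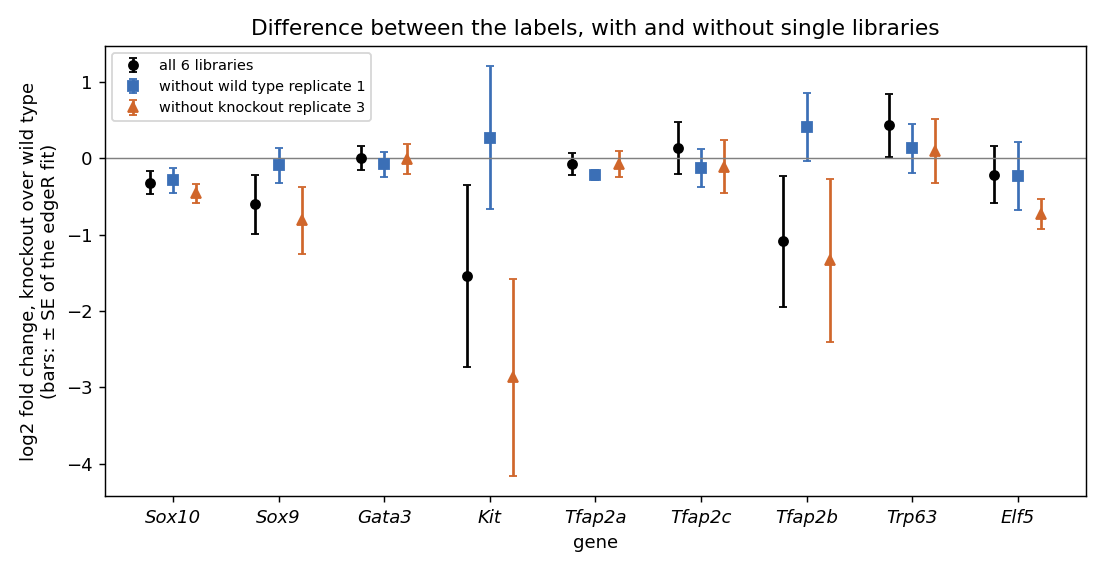
Log2 fold change of each lineage gene, knockout over wild type label, with the SE of the edgeR fit as bars, over all 6 libraries and without wild type replicate 1 or knockout replicate 3. Kit goes from -1.54 to 0.27 and Tfap2b from -1.09 to 0.41 without wild type replicate 1, and Elf5 goes from -0.22 to -0.73 without knockout replicate 3.

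Within the knockout label, 1 library was low for lineage genes and epithelial markers alike. Knockout replicate 2 was the lowest of the 3 for 9 of 9 lineage genes, for 9 of 10 epithelial markers and for 33.1% of all genes. Knockout replicate 3 was the highest for 7 of 9 lineage genes, all but Gata3 and Tfap2a, and for 38.4% of all genes. In knockout replicate 2 the epithelial list had a mean of 7.79 log2 CPM. The other libraries labelled knockout had 8.02 and 8.09, and those labelled wild type 8.38 to 8.73. In the same library the fibroblast list had its highest mean, 8.25 log2 CPM against 6.62 to 7.77 elsewhere, and so had the pericyte list, at 6.38 against 3.86 to 5.76. Fewer epithelial cells and less RNA per cell cannot be told apart in bulk libraries, and the part of stromal cells in these values was not tested.

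Levels were therefore also taken relative to the mean of the epithelial list in each library, a scaling chosen after the data were seen. That mean differed by -0.53 log2 between the labels, and the median of all genes on this scale was 0.53. On this scale Gata3, Tfap2a and Trp63 lay higher in all 3 libraries labelled knockout than in all 3 labelled wild type, by 0.55, 0.47 and 1.02 log2 (two-sided exact permutation p = 0.1 each, the smallest possible with 3 against 3). The same held for 73.3% of all genes, and 0.227% lay lower in all 3, so the 3 of 9 is no result about the lineage genes. Gata3 and Tfap2a thus lay near the median gene and Trp63 above it. Tfap2c differed by 0.70 with overlapping groups. Kit differed by -0.79 log2, with a span of 3.91 log2 between libraries, and Sox9, Sox10, Elf5 and Tfap2b differed by 0.017, 0.20, 0.18 and 0.038 log2.

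**Figure D5:**
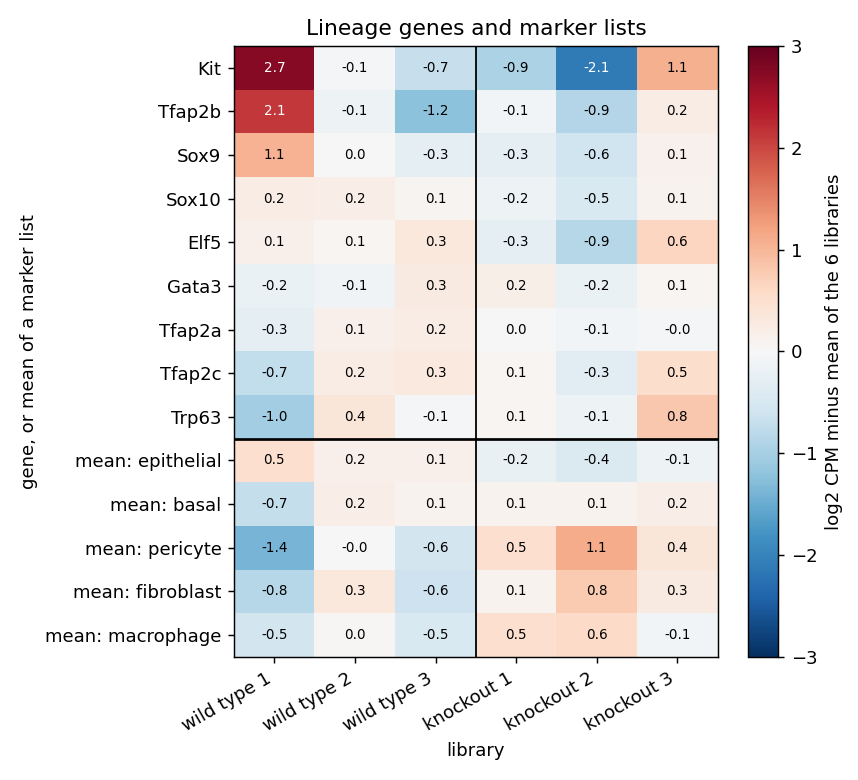
Log2 CPM of each lineage gene, and the mean log2 CPM of 5 marker lists, minus the mean of the 6 libraries (colour and number), with libraries in columns. Kit, Tfap2b and Sox9 are high in wild type replicate 1 where Trp63 and Tfap2c are low, and knockout replicate 2 is low for the lineage genes and high for the pericyte and fibroblast lists.

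Wild type replicate 1 was the highest of the 6 libraries for 4 of 9 lineage genes, Kit, Tfap2b, Sox9 and Sox10, and the lowest for 3, Trp63, Tfap2c and Tfap2a. It was the highest for 32.2% and the lowest for 31.6% of all genes, so these counts do not set the lineage genes apart. Kit, Tfap2b and Sox9 exceeded the mean of the other 5 libraries there 7.55, 5.43 and 2.36 times, and Trp63 lay 2.46 times below it. A distance on the log2 scale as large as that of Kit was reached by 0.218% of all genes, and one as large as that of Tfap2b by 0.591%. In this library the pericyte list had its lowest mean, 3.86 log2 CPM, and the epithelial list its highest, 8.73.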

How the data were processed

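Messenger RNA of 6 libraries was analysed, 3 labelled wild type and 3 labelled Nr4a1-/-. The deposited values are the authors' unnormalized counts of reads, given by gene symbol for each library. CASAVA 1.8, HISAT2, featureCounts and GRCm38 (mm10) are named in the submitters' processing notes. The gene annotation used, strandedness, treatment of shared reads and any removal of low genes: not given in the sources used here. Symbols were matched to GENCODE M21, where 10917 matched 1 gene. Counts were fitted with edgeR 4.0.16 in R 4.3.3 (filterByExpr, which removed 0 genes, TMM, robust quasi-likelihood F test, group as the only term), with Benjamini-Hochberg adjustment over all 10995 genes at 0.05. SE is the absolute log2 fold change divided by the square root of F. CPM are TMM-scaled, and log2 CPM has a prior count of 2. Levels per kilobase divide CPM by the union of annotated exons. DESeq2 1.42.0 and limma-voom (limma 3.58.1) were alternatives, with other scalings and filters, the replicate number as a block and each library left out.

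The fit was tested on simulated counts for the 10995 genes with 200 changed, where edgeR called 75% of the 2-fold changed genes, 90% of the 4-fold changed genes and 14 unchanged genes. On the same counts DESeq2 called 90%, 92% and 63 unchanged genes. Genes were drawn independently of each other and no library was made to stand apart, unlike wild type replicate 1. These rates therefore do not carry over to the data. The genes and lists were chosen with earlier results of these data known, and all list members in the table are counted. Beside every lineage gene and Nr4a1, the text names up to 4 genes per related list with the smallest unadjusted p, leading or shared markers of cell types, and, for lineage genes spanning over 1 log2, the 3 genes of closest pattern, leaving out unnamed gene models. Some genes that this rule gives are not reported here. Kitl, Krt17, Krt14, Krt5, Ednrb, Mitf, Erbb3, Mbp, Cnn1, Vim, Procr, Trf, Itgb3, Lbp and markers outside the table were named after their values were seen. Foxa1 RNA was not analysed here.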

Additional observations from a re-analysis of the deposited data

How the results depend on the processing

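Without replicate 1 of the wild type label, Gata3, Kit, Tfap2b and Tfap2c changed sign, at -0.082, 0.27, 0.41 and -0.13 log2. Gata3 also did without wild type replicate 2 (-0.043), knockout replicate 1 (-0.079) and knockout replicate 3 (-0.011), Tfap2a without wild type replicate 3 (0.028), Tfap2c without knockout replicate 3 (-0.11) and Elf5 without knockout replicate 2 (0.065). Relative to the epithelial list, Elf5, Sox10, Sox9, Tfap2a and Tfap2b changed sign, at 0.18, 0.20, 0.017, 0.47 and 0.038. The median of all genes on that scale was 0.53, above each of these values. Other extremes with a library left out were 0.77 for Trp63 (without wild type replicate 2), 0.31 for Tfap2c (without wild type replicate 3 or knockout replicate 2), -0.73 for Elf5, -2.87 for Kit (both without knockout replicate 3), 0.16 for Gata3, -1.56 for Tfap2b (both without wild type replicate 3) and -0.22 for Tfap2a (without wild type replicate 1). Trp63 kept its sign in these settings and in the others run. The cause was not tested. The number of lineage genes called was 0 in every setting. The number of genes called was 103 in DESeq2, 2 without wild type replicate 2 and 0 with any other library left out, and in the lists of related genes DESeq2 called 4. With a library left out the median of the lineage genes lay between -0.46 and -0.057 and the log2 fold change of Nr4a1 between 0.31 and 0.88. Without division by length 3 of 9 genes kept their place in the order. The labels number replicates alike in both groups, but deviations of same-numbered libraries correlated at -0.11, 0.35 and -0.26, and 1 of 3 libraries of each label correlated best with its own number, so the numbers were not taken as pairs. With the replicate block 0 genes were called, Nr4a1 was 0.55 and the median of the lineage genes -0.34. In the block fit Tfap2b was -0.54 and Kit -1.51. Genes at an unadjusted p under 0.05 numbered 866 over all libraries. Leaving out wild type replicate 2 gave 1365 such genes, knockout replicate 1 gave 513 and knockout replicate 2 gave 388. With at least 418 counts for each lineage gene, counting error was small beside the 29.0-fold range of Kit.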
